A study of Eriocheir sinensis with 2 samples.

Results

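Unigenes (assembled transcript sequences) named for Wnt, Notch and Hedgehog signaling and for the related Hippo and axon guidance pathways were examined in the Y-organ of the Chinese mitten crab, *Eriocheir sinensis*. They were chosen by annotation alone: the best protein hit of the unigene had to contain any of 23 words, such as Wnt, frizzled, notch, hedgehog, plexin or yorkie. This gave 74 unigenes of the 47966 that had at least 1 read, of which 13314 carried a protein annotation. Y-organ RNA was sequenced as 2 libraries. C0 came from untreated crabs and C1 from crabs whose eyestalk had been removed, both taken after 48 h, and the Y-organs of a group of crabs made up each sample. The labels give no strain, sex or molt stage, and no sham operation is described in the methods, so the wound and the loss of the eyestalk cannot be told apart. With 1 library in each group there was no replicate check, and each test below sets 1 library against the other, not ablated against untreated crabs in general.

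The Y-organ is the paired gland that makes the ecdysteroid molting hormones of crustaceans, and a neuropeptide from the eyestalk restrains it. Wnt proteins are secreted ligands that bind frizzled receptors. The signal passes through dishevelled, which blocks a complex of axin, adenomatous polyposis coli and kinases that otherwise marks β-catenin for destruction, and β-catenin then acts with TCF in the nucleus. Notch is a membrane receptor that is cut by ADAM proteases and then by γ-secretase, whose catalytic subunit is presenilin, and the freed fragment acts on transcription. Hedgehog ligands act through the membrane proteins patched and smoothened on suppressor of fused and Gli factors. Yorkie is the transcriptional coactivator that the Hippo kinases hold back. Semaphorins with their plexin receptors, netrins and slits steer growing axons and also act on the shape and adhesion of other cells.

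The words did not mark only these pathways. Of the 74 unigenes, 46 were named for a protein of the pathways, and 28 carried the same letters inside another protein name. The word axin found 20 unigenes, but only 2 of them were axin. The rest were 6 syntaxins, 3 syntaxin-binding proteins, 4 metaxins, 3 proteins with a pentraxin domain, ataxin-3 and ataxin-10. The word ephrin found 4 nephrins, hippo found 2 hippocampus abundant transcripts, delta-like found 2 casein kinase I isoforms named delta-like, and armadillo found 2 armadillo repeat proteins outside the catenins. No unigene was found for 7 of the 23 words, which were jagged, serrate, hedgehog, patched, smoothened, roundabout and warts. No Hedgehog ligand or receptor was therefore named among the unigenes, and the term Hedgehog applied only to the downstream proteins described at the end. The Notch ligands Jagged and Serrate were also not found, and the word delta-like found no Notch ligand. Delta without the ending was not among the words, so a Notch ligand named only Delta would have been missed. Of the 46 pathway unigenes, 18 belonged to Wnt signaling and the catenins, 14 to Notch, 2 to Hippo and 12 to axon guidance. They had 36 different best hits, and 13 of them shared a best hit with another, which for short unigenes can mean pieces of 1 transcript. Their lengths ran from 207 to 3355 bp, with a median of 532 bp.

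The pathway unigenes were low in both libraries. The unigene reads summed to 4152469 in C0 against 3750847 in C1. All 74 unigenes together held 1145 reads in C0 against 951 in C1, or 0.0276% and 0.0254% of the unigene reads. RPKM, the read number scaled to unigene length and library total, sets levels of genes side by side. Of the 46 pathway unigenes, 42 were detected in C0 with a median RPKM of 2.26, and 39 in C1 with a median of 2.31. The median over detected unigenes with an annotation was 7.01 in C0 and 6.67 in C1. Only 6 pathway unigenes lay above that median in C0 against 4 in C1. Both libraries contributed reads to 35 of them, while 7 were seen in C0 alone and 4 in C1 alone. Even 3 reads would be only 7.22e-05% of the C0 reads and 8e-05% of the C1 reads, the limit that a count of 0 sets, so these 11 unigenes give no sign of presence in only 1 condition.

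**Figure D1:**
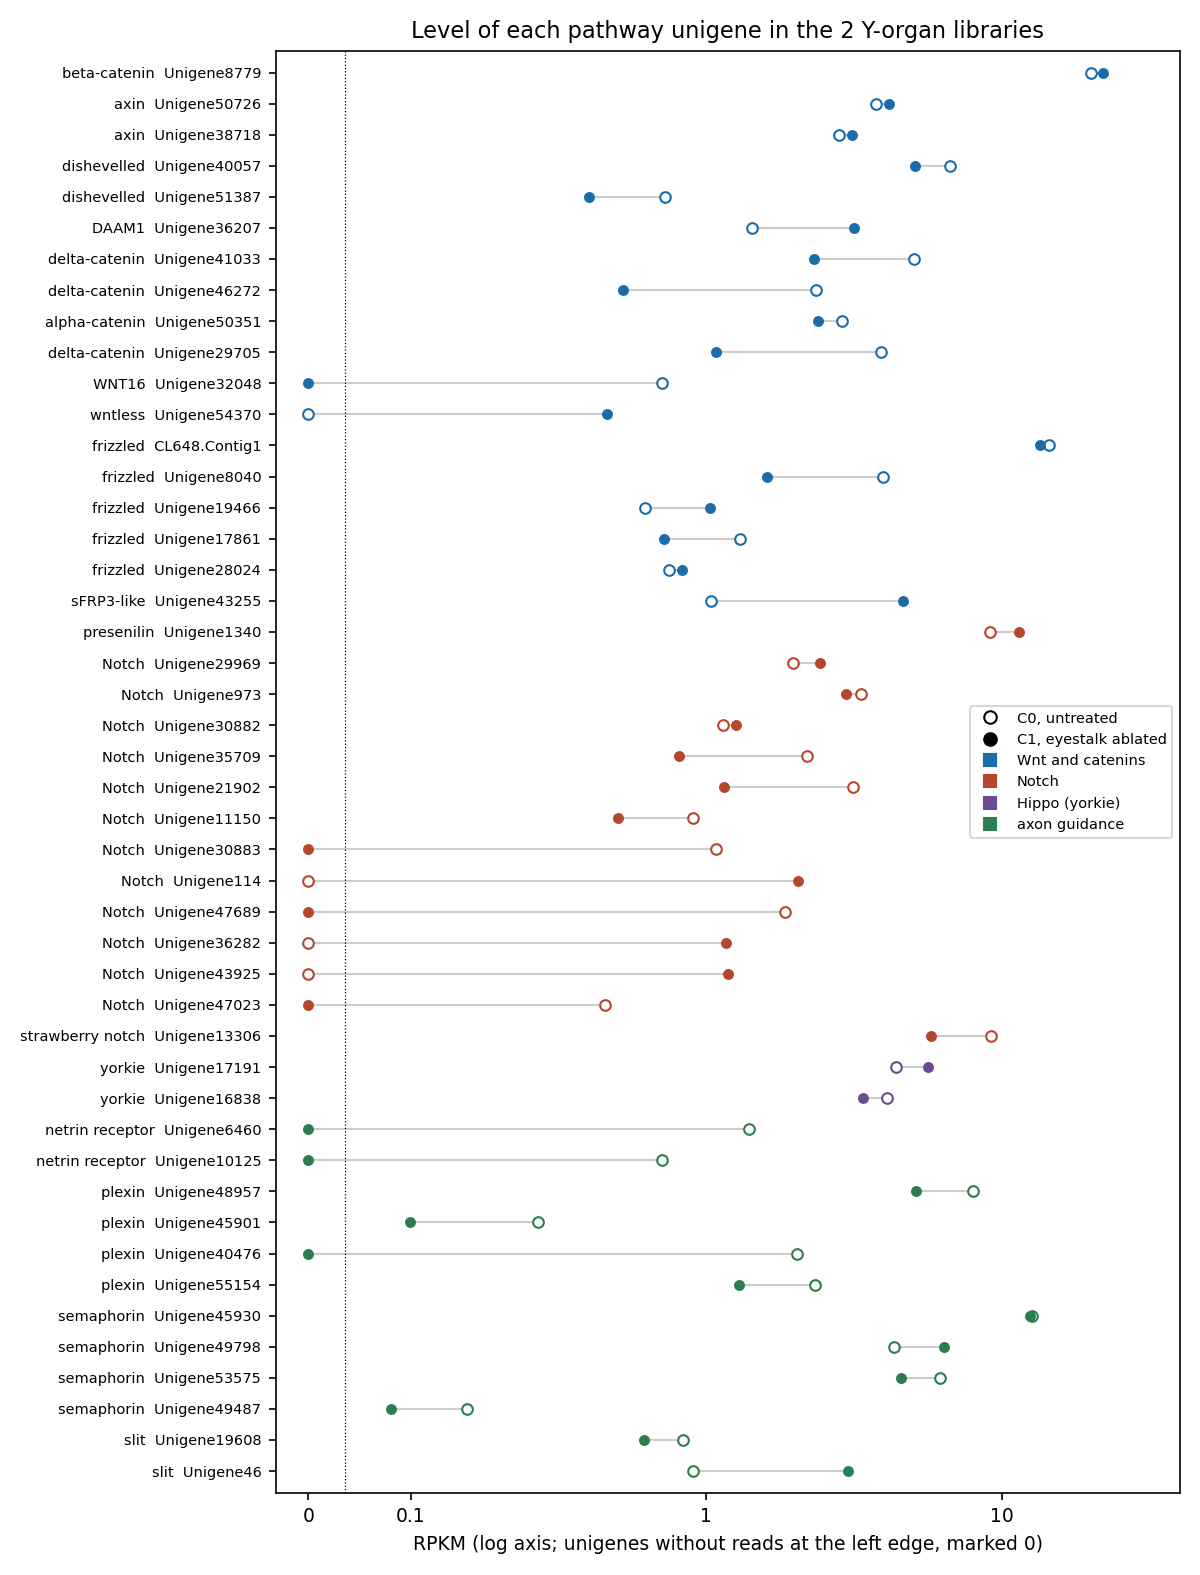
RPKM (log axis) of the 46 pathway unigenes in C0 (open circles) and C1 (filled circles), grouped by pathway and role, with a line joining the 2 libraries and unigenes without reads placed at the left edge. β-Catenin, 1 frizzled and 1 semaphorin-1A unigene are above 10 in both libraries, while most others are below 5.

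The comparison between C0 and C1 gave no call in this list. C1 took 47.5% of the reads of the whole table, and an exact binomial test asked whether a unigene departed from this share, with Benjamini-Hochberg adjustment over the 47966 unigenes. To be called a differentially expressed unigene (DEU), its adjusted p had to reach 0.001 or less. Its log2 ratio (C1/C0), calculated after 0.5 read was added on both sides, also had to exceed 1 in size. Of the 74 unigenes, 0 were DEUs. Among all tested unigenes 1931 were called, which is 4.03%, with 2.32% called higher and 1.7% called lower in C1. Among annotated unigenes with at least 10 and at most 557 reads, the range of the listed unigenes that reached 10 reads, 6.72% were called. At an unadjusted p under 0.05 there were 5 unigenes of the 74 by the exact binomial test and 5 by Fisher's exact test. Of these, 3 had fewer and 2 had more reads in C1 relative to library size. They are 6.76% of the list, less than the 20.1% of all unigenes and the 23.8% of annotated ones under this p. At 10 reads or more the share was 11.5% in the list and 30.1% of all unigenes.

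Depth set what could be seen. A unigene needed at least 14 reads in both libraries together, all of them in C1, or 16 reads all in C0, to be called. Of the 74 unigenes 51 had fewer than 14, and so did 33 of the 46 pathway unigenes. For the remaining 23 the smallest rise that could be called ran from a log2 ratio of about 1 at 155 reads or more to 5.28 at 17 reads, and none of the 23 was called, beside the 6.72% given above. At 10 reads or more, 26 unigenes remained, of which 16 had a log2 ratio below 0 and 10 above it, with a median of -0.20. The median was -0.09 for the 15 pathway unigenes among them and -0.20 for the 11 others. The median over all unigenes with at least 10 reads was 0.15, and over annotated ones it was -0.07, with 53.7% of the latter below 0 against 61.5% in the list. Another scaling of the libraries moved every value by the same amount. TMM factors (edgeR) shifted all values by -0.17, and the calls over all unigenes turned from 1115 higher and 816 lower to 730 higher and 1053 lower. For 5 unigenes the 95% Wilson interval of the log2 ratio lay within 1 of 0 on both sides: β-catenin, frizzled CL648.Contig1, semaphorin-1A Unigene45930, syntaxin-18 and syntaxin 5. This set holds for scaling by library totals. The shift of -0.17 would take the lower end for syntaxin-18, -0.96, past -1, and the upper end for semaphorin 2a, 1.14, below 1. The Wilson intervals come from the read counts alone and so cover counting error only. Reads that are PCR copies are not independent molecules, which would make the intervals too narrow.

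**Figure D2:**
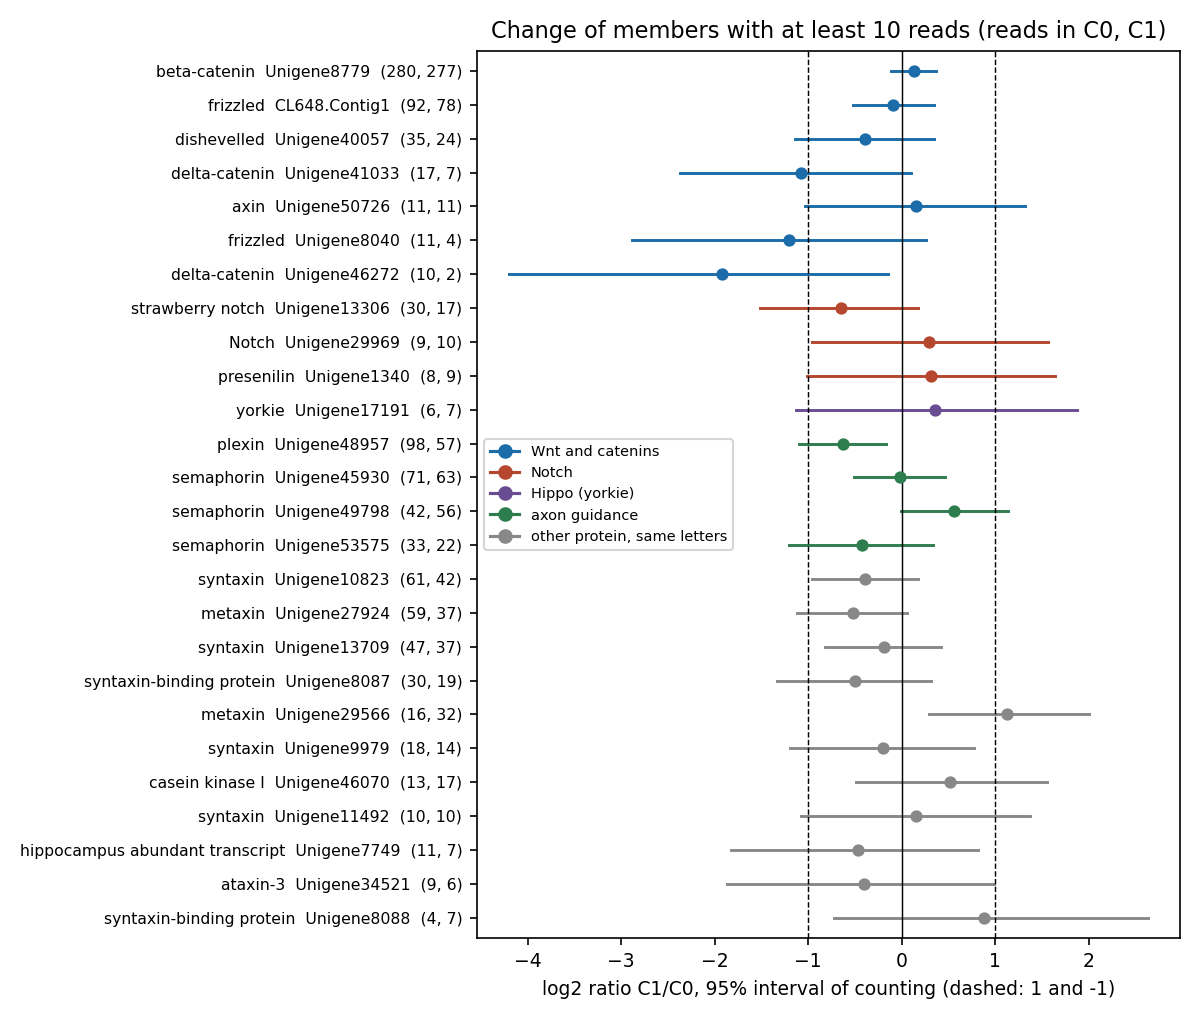
Log2 ratio (C1/C0, points) with 95% Wilson interval (lines, counting error only) of the 26 unigenes with at least 10 reads, with the reads in C0 and C1 beside each name. The intervals of 23 of the 26 include 0, and those of plexin Unigene48957 and δ-catenin Unigene46272 lie below 0 while that of metaxin Unigene29566 lies above it.

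The ligand end of the Wnt pathway was close to the detection limit. WNT16 (Unigene32048, best hit in the water flea *Daphnia pulex*) was the only Wnt ligand and had 1 read in C0 against 0 in C1. Wntless (Unigene54370), the carrier that brings Wnt proteins to the cell surface, had 0 reads in C0 against 1 in C1. A secreted frizzled-related protein 3-like unigene (Unigene43255) had 1 read in C0 against 4 in C1, with an interval of the log2 ratio from -0.59 to 4.88. Proteins of that family bind Wnt outside the cell and act as antagonists in vertebrates.

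The frizzled receptors were dominated by 1 unigene. Frizzled CL648.Contig1 (1538 bp, best hit frizzled-10 of the platypus) had 92 reads in C0 against 78 in C1, an RPKM of 14.4 and 13.5. Its log2 ratio was -0.09 with an interval from -0.52 to 0.34 (adjusted p = 0.972, exact binomial test), so a difference past the fold threshold lies outside the counting error. Reads covered only 40.8% of its length in C0 and 34.7% in C1, less than in other unigenes of this depth. β-Catenin, for example, was covered to 91.8%, and semaphorin-1A Unigene45930 to 79.1% with 71 reads. The next frizzled, Unigene8040, had 11 reads in C0 against 4 in C1 (log2 ratio -1.21, interval -2.88 to 0.26, adjusted p = 0.436). The other 3 frizzled unigenes had 2 to 5 reads each. All 5 receptors together had 108 reads in C0 against 87 in C1, or log2 -0.16 (interval -0.57 to 0.24).

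Inside the cell, β-catenin had the most reads of the whole list and the highest level of the pathway unigenes. β-Catenin (Unigene8779, 3355 bp, best hit in the amphipod *Parhyale hawaiensis*) had 280 reads in C0 against 277 in C1, an RPKM of 20.1 and 22. The log2 ratio was 0.13, with an interval from -0.11 to 0.37 and an adjusted p of 0.68 in the exact binomial test. At this depth any log2 ratio past the threshold of 1 would have been called. Its sign depends on the scaling: with the TMM factors it was -0.04 and with median ratio size factors -0.02. Dishevelled Unigene40057 had 35 reads in C0 against 24 in C1, with an RPKM of 6.7 and 5.09 and log2 -0.39 (interval -1.14 to 0.34). A second dishevelled unigene had 3 reads in all. Axin, the scaffold of the destruction complex, had 11 reads in each library on Unigene50726 and 4 in each on Unigene38718, and both had a log2 ratio of 0.15, which became -0.02 with the TMM factors for Unigene50726. DAAM1 (Unigene36207), a formin that binds dishevelled and acts on the cytoskeleton, had 2 reads in C0 against 4 in C1.

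The catenins of cell junctions had fewer reads in C1, at counts too low for a call. α-Catenin links β-catenin at adherens junctions to actin, and δ-catenins bind the juxtamembrane part of cadherins. δ-Catenin Unigene41033 had 17 reads in C0 against 7 in C1, an RPKM of 5.06 and 2.31. Its log2 ratio was -1.08 with an interval from -2.37 to 0.10 (adjusted p = 0.388, exact binomial test). At 24 reads a log2 ratio of -3.02 would have been needed for a call. δ-Catenin Unigene46272 had 10 reads in C0 against 2 in C1, with an interval from -4.20 to -0.15 (p = 0.0415, adjusted p = 0.216, exact binomial test). The remaining δ-catenin unigene had 4 reads in C0 against 1 in C1, and α-catenin Unigene50351 had 4 and 3. Summed over the 4 unigenes, the reads were 35 in C0 against 13 in C1, for a log2 ratio of -1.25, interval -2.19 to -0.38. This sum was formed after the values were known and has no test. β-Catenin, which sits at the same junctions and also carries the Wnt signal, is not in it.

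Notch receptor reads were spread over many short unigenes. Of the 12 Notch receptor unigenes, 9 shared a single best hit, a Notch protein of *P. hawaiensis*, and these 9 spanned 4887 bp in all. Together they had 34 reads in C0 against 23 in C1, an RPKM of 1.68 and 1.25 over the summed length. The log2 ratio of the sum was -0.41 with an interval from -1.17 to 0.34. The longest and most read of them, Unigene29969 (1102 bp), had 9 reads in C0 against 10 in C1, or log2 0.29 (interval -0.96 to 1.56, adjusted p = 0.946, exact binomial test). The signs of the 9 thus differed among pieces that may belong to 1 transcript. Presenilin (Unigene1340, 211 bp) had 8 reads in C0 against 9 in C1, an RPKM of 9.13 and 11.4 and log2 0.31 (interval -1.01 to 1.64). Strawberry notch, a nuclear protein that acts with Notch in *Drosophila*, had the most reads of any single unigene of the Notch group. Its unigene, Unigene13306 (788 bp), had 30 reads in C0 against 17 in C1, an RPKM of 9.17 and 5.75, and log2 -0.65 (interval -1.52 to 0.17, adjusted p = 0.472, exact binomial test).

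Yorkie, the Hippo coactivator, was found as 2 short unigenes with different best hits. Unigene17191 (331 bp) had 6 reads in C0 against 7 in C1, an RPKM of 4.37 and 5.64. Unigene16838 (235 bp) had 4 and 3, an RPKM of 4.1 and 3.4. Together they had 10 reads in each library, with a log2 ratio of 0.15 and an interval from -1.08 to 1.37.

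The axon guidance unigenes held the pathway unigene with the smallest p. Plexin-A4 (Unigene48957, 2956 bp), a semaphorin receptor, had 98 reads in C0 against 57 in C1, an RPKM of 7.98 and 5.14. Its coverage was 76.5% in C0 and 54.6% in C1. The log2 ratio was -0.63 with an interval from -1.10 to -0.17 (p = 0.00788, adjusted p = 0.0642, exact binomial test). A fall past the fold threshold would have been called at this depth, but both the fold and the adjusted p missed the thresholds. The other 3 plexin unigenes had 3, 4 and 3 reads, and the 4 together had 106 reads in C0 against 59 in C1.

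The semaphorins had values on both sides of 0, and none was called. Semaphorin-1A, a membrane-bound ligand of plexin A in insects, had 2 unigenes with the same best hit. Unigene45930 had 71 reads in C0 against 63 in C1, an RPKM of 12.7 and 12.5, and log2 -0.02 (interval -0.51 to 0.46). Unigene53575 had 33 and 22, an RPKM of 6.18 and 4.56, and log2 -0.43 (interval -1.21 to 0.33). The secreted semaphorin 2a (Unigene49798) had 42 reads in C0 against 56 in C1, an RPKM of 4.31 and 6.37. Its log2 ratio of 0.56 had an interval from -0.01 to 1.14 and an adjusted p of 0.298 in the exact binomial test, the highest value among pathway unigenes with at least 10 reads. A further semaphorin-1A-like unigene of 3104 bp had 3 reads in all. The 2 netrin receptors UNC5C had 3 reads in C0 against 0 in C1. The 2 slit homologs, with 3 and 2 reads on Unigene19608 and 1 and 3 on Unigene46, had 4 reads in C0 against 5 in C1. Netrin itself and the slit receptor roundabout were not named in the annotation.

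Unigenes chosen as nerve markers had fewer summed reads in C1, mostly through neurexin and synaptobrevin. Whether these names mark nerve tissue alone was not tested. The 12 nerve unigenes had 96 reads in C0 against 40 in C1, or 23.1 and 10.7 per 1e+06 reads, and none of them was called. Neurexin had 47 and 15 reads, synaptobrevin 40 and 22, synaptotagmin 6 and 0, and elav 3 and 3, while no unigene was found for synapsin and choline acetyltransferase. In bulk RNA, fewer cells of a type and less RNA per cell cannot be told apart, and the part of nerve tissue in the plexin and catenin values was not tested. Unigenes named for proteins of other tissues were also found, and whether these names mark those tissues alone was not tested. Hemocyte markers had 2958 reads in C0 against 1918 in C1, or 712 and 511 per 1e+06 reads. Their median log2 ratio was -0.59 over 13 unigenes, and of all 14 hemocyte unigenes 2 were called lower. Their part in the plexin and catenin values was not tested either. Muscle markers had 13585 and 12845 reads, or 3270 and 3420 per 1e+06 reads. Their median log2 ratio was -0.29 over 37 unigenes, and of all 69 muscle unigenes 5 were called lower and 1 higher. Over all unigenes 1.7% were called lower and 2.32% higher. Hepatopancreas markers had 621 and 613 reads over 20 unigenes, and none was called. Cuticle markers summed to 2460 and 4242 reads, while their median log2 ratio was -0.17. The 3 Y-organ markers of ecdysteroid synthesis had 277643 and 259777 reads, or 66900 and 69300 per 1e+06 reads. Of these 3, 1 was called higher, and the median log2 ratio was 0.61 over the 2 with at least 10 reads. Unigenes with a ciliate best hit had 32495 reads in C0 against 10294 in C1, and 0 of the listed unigenes had such a hit.

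**Figure D3:**
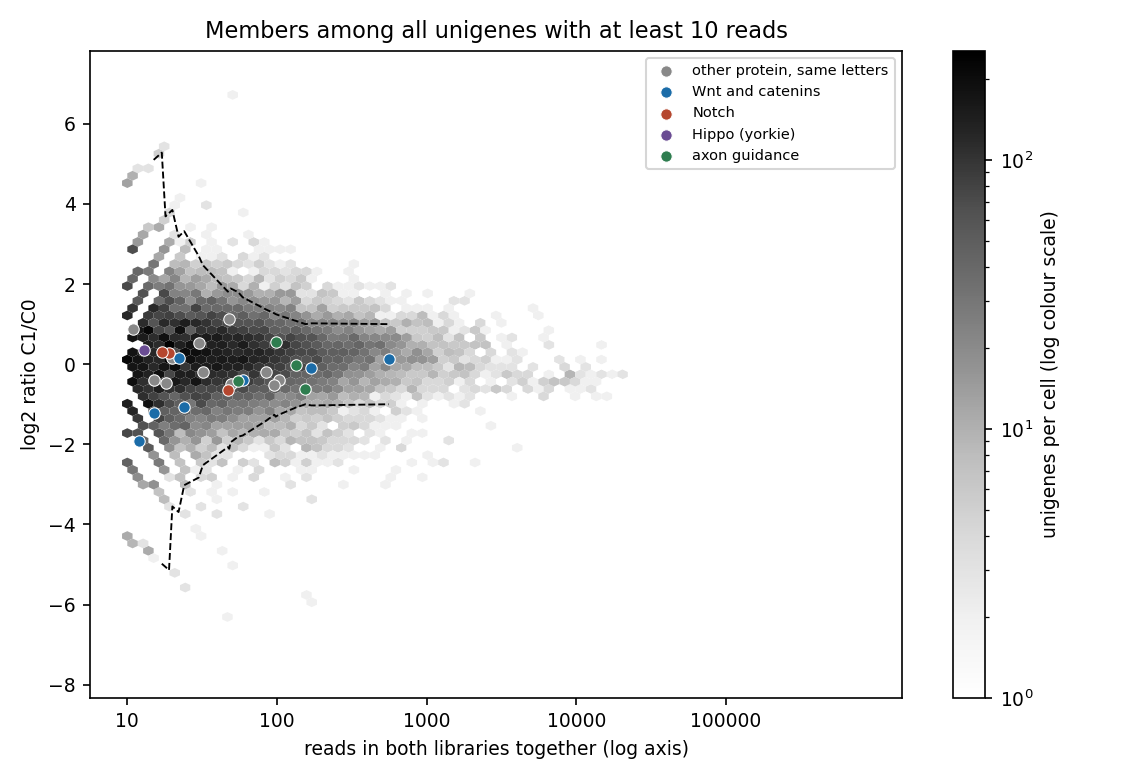
Log2 ratio (C1/C0) against the reads in both libraries together (log axis) for all unigenes with at least 10 reads (grey cells, darker for more unigenes), with the 26 listed unigenes as colored points. The dashed lines join the smallest rise and fall that would have been called at the read numbers of the listed unigenes, and every point within their range lies between them.

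The 28 unigenes of other proteins also held no DEU. They had 322 reads in C0 against 257 in C1, and 11 of them reached 10 reads. The level was highest for syntaxin 5 (Unigene13709), a membrane fusion protein of the Golgi, with 47 reads in C0 against 37 in C1 and an RPKM of 34.8 and 30.4. Syntaxin-18 (Unigene10823), which acts at the endoplasmic reticulum, had 61 reads in C0 against 42 in C1, or log2 -0.39 (interval -0.96 to 0.17). The metaxins, which belong to the import machinery of the outer mitochondrial membrane, had values on both sides of 0. The metaxin-like unigene Unigene27924 had 59 reads in C0 against 37 in C1, or log2 -0.52 (interval -1.12 to 0.06). Metaxin-1 (Unigene29566) had 16 reads in C0 against 32 in C1, an RPKM of 5.69 and 12.6, and log2 1.12 (lower end of the interval 0.29, p = 0.00885, adjusted p = 0.0697, exact binomial test). A second unigene with the same best hit, Unigene53754, had 1 read in C0 against 8 in C1 (p = 0.0164, exact binomial test). Ataxin-10 (Unigene46812) had 7 reads in C0 against 0 in C1 (p = 0.0165, adjusted p = 0.112, exact binomial test). These 3 and plexin-A4 and δ-catenin Unigene46272 are the 5 unigenes with an unadjusted p under 0.05. Syntaxin-binding protein 5 (Unigene8087) had 30 reads in C0 against 19 in C1, syntaxin-8 (Unigene9979) 18 and 14, and casein kinase I delta-like (Unigene46070) 13 and 17. A further syntaxin (Unigene11492) had 10 reads in each library, hippocampus abundant transcript 1 (Unigene7749) 11 and 7, and ataxin-3 (Unigene34521), a deubiquitinase, 9 and 6. The most read nephrin (Unigene12543) had 6 reads in C0 and 1 in C1, the most read pentraxin-domain unigene (Unigene4808) 2 and 4, and the most read armadillo repeat protein (Unigene5474) 2 in each library. The intervals of these last 6 unigenes, from Unigene11492 to Unigene5474, included 0.

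GO terms were attached to 28 of the 46 pathway unigenes. Transmembrane receptor activity was given to 8 unigenes, the 5 frizzled receptors and 3 plexins, and the Wnt receptor signaling pathway to 5. Axon choice point recognition was given to 3 unigenes, all plexins, and cell-cell adherens junction to 2, β-catenin and α-catenin.

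Other genes of the same pathways were collected from 44 further protein names, and 26 of these names had a unigene outside the list of 74. Each unigene was counted under 1 name only. The 18 without one included the Wnt coreceptor LRP5/6, the Notch effectors Suppressor of Hairless and mastermind, the Hedgehog effector Gli and the Hippo regulators kibra and ajuba. Unc5 is also among the 18, because its 2 unigenes, the netrin receptors UNC5C, are already in the list of 74. The list held 80 unigenes with 10313 reads in C0 against 8759 in C1, most of them from a single 14-3-3 unigene. Of these 80, 3 were called, or 3.75%, which is near the 4.03% called over all unigenes. All 3 were lower in C1, the direction of 1.7% of all unigenes. Of the 43 with at least 10 reads, 31 had a log2 ratio below 0 and 12 above it, with a median of -0.45 beside -0.07 for annotated unigenes and 0.15 for all. The median was -0.41 for 11 Wnt unigenes, -0.67 for 11 Notch unigenes, -0.06 for 5 Hedgehog unigenes, -0.56 for 14 Hippo unigenes and -0.07 for 2 axon guidance unigenes.

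**Figure D4:**
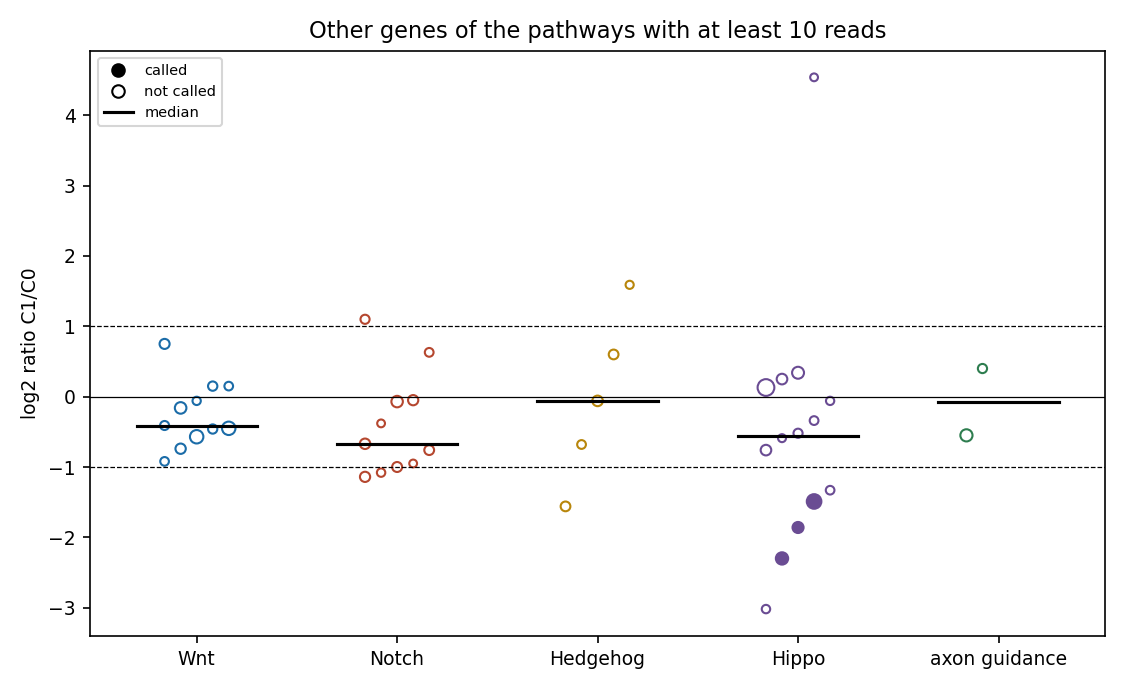
Log2 ratio (C1/C0) of the 43 further pathway unigenes with at least 10 reads, by pathway, with larger circles for more reads, filled circles for called unigenes, black bars for the median of each pathway and dashed lines at 1 and -1. The 3 called unigenes are all 14-3-3 proteins in the Hippo column, and the unigene at 4.54, a value that depends on the 0.5 read added, is a 14-3-3 with 0 reads in C0 against 10 in C1.

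The 3 called unigenes were all 14-3-3 proteins, adaptors that bind phosphorylated partners and hold yorkie in the cytoplasm, among many other roles outside the Hippo pathway. Unigene46164 fell from 1173 reads in C0 to 376 in C1, an RPKM of 418 and 149, with a log2 ratio of -1.49 (interval -1.66 to -1.33, exact binomial test, adjusted p = 3.01e-76). Unigene27513 fell from 171 to 31 reads, or log2 -2.30 (interval -2.87 to -1.77, adjusted p = 6.25e-20, exact binomial test). Unigene5588 fell from 62 to 15 reads, or log2 -1.86 (interval -2.70 to -1.10, adjusted p = 1.2e-05, exact binomial test). These 3 shared 1 best hit of the shrimp *Penaeus monodon* with 1 further unigene, Unigene54358, which had 0 reads in C0 against 10 in C1 (adjusted p = 0.0074, exact binomial test). Summed, the 4 had 1406 reads in C0 against 432 in C1, or log2 -1.55 (interval -1.71 to -1.40). The main 14-3-3 unigene, Unigene20932, had another best hit of the same species and did not follow them, with 7351 reads in C0 against 7268 in C1, an RPKM of 733 and 803. Its log2 ratio was 0.13 (interval 0.08 to 0.18, adjusted p = 1.38e-06, exact binomial test), far under the fold threshold. The sign of this value depends on the scaling. TMM factors shifted every log2 ratio by -0.17 and median ratio size factors by -0.15, both more than 0.13 in size. All 6 14-3-3 unigenes together had 8764 reads in C0 against 7702 in C1, for a log2 ratio of -0.04, interval -0.08 to 0.00. The same shifts would move this sum and its interval. Of the 6, Unigene34177 (7 reads in C0 against 2 in C1) had its best hit in the slime mold *Physarum polycephalum*. Whether it is a crab transcript was not tested. How alike the sequences of these unigenes are was not measured, and reads that fit more than 1 of them are not in the counts of uniquely mapped reads, so the values of single 14-3-3 unigenes are uncertain.

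Among the other Hippo proteins, scalloped, the DNA-binding partner of yorkie, had 31 reads in C0 against 8 in C1 over 3 unigenes. The log2 ratio of this sum was -1.74 (interval -2.90 to -0.71). No scalloped unigene was called, but each had only 9 to 16 reads, and a call for a fall needed 16 reads, all in C0. The lowest adjusted p of scalloped was 0.0225 for Unigene15100, with 13 reads in C0 against 1 in C1 and an interval from -6.13 to -0.98 (exact binomial test). Cadherins named fat or fat-like had 28 and 11 reads over 7 unigenes, or log2 -1.16 (interval -2.19 to -0.21). Most of their best hits were named fat-like, not fat. Whether these cadherins act in the Hippo pathway was not tested. Merlin had 30 and 19 reads over 3 unigenes, or log2 -0.50 (interval -1.33 to 0.31). Salvador, the scaffold of the Hippo kinase, had 36 reads in C0 against 19 in C1, or log2 -0.76 (interval -1.57 to 0.02). The Mob kinase activators had 100 and 110 reads over 3 unigenes, or log2 0.28 (interval -0.11 to 0.67). Their best hits were 3 different Mob-like proteins, and whether all of them act in the Hippo pathway was not tested.

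In the Wnt list 2 casein kinase I unigenes had the most reads. The alpha form belongs to the destruction complex, and the epsilon form is known for acting on dishevelled. The 2 delta-like isoforms of this kinase family were found by the word delta-like and are counted above with the other proteins. Casein kinase 1 alpha (Unigene9662) had 327 reads in C0 against 199 in C1, an RPKM of 50.7 and 34.1. Its log2 ratio of -0.57 (interval -0.82 to -0.32) passed the adjusted p with 0.000195 in the exact binomial test but not the fold threshold. Casein kinase I epsilon-like (Unigene46313) had 316 and 209 reads, or log2 -0.45 (interval -0.70 to -0.20, adjusted p = 0.00609, exact binomial test). Glycogen synthase kinase 3 beta (Unigene7853), which phosphorylates β-catenin after casein kinase 1, had 62 reads in C0 against 50 in C1, or log2 -0.16 (interval -0.70 to 0.37). Adenomatous polyposis coli had 49 and 28 reads over 4 unigenes (log2 ratio -0.65, interval -1.32 to 0.00). TCF had 0 reads in C0 against 1 in C1.

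In the Notch list the most read unigene was numb (Unigene54488), an inhibitor of Notch in asymmetric division, with 56 reads in C0 against 48 in C1 and log2 -0.07 (interval -0.63 to 0.48). Deltex, a ubiquitin ligase that binds Notch, and suppressor of deltex had 90 and 51 reads over 4 unigenes, or log2 -0.67 (interval -1.17 to -0.18). Unigene22643 went the other way with 7 and 10 reads, or log2 0.63 (interval -0.68 to 2.01). The 2 unigenes that share a deltex best hit had 39 and 28 reads together, or log2 -0.32 (interval -1.02 to 0.36). The sums in this paragraph have no test. Mind bomb and neuralized are ligases that act on Notch ligands. The 8 unigenes grouped under these names had 42 and 21 reads (log2 ratio -0.84, interval -1.60 to -0.11). This sum includes neuralized-like protein 2 (Unigene11079, 10 and 4 reads) and neuralized-like protein 4 (Unigene27391, 7 and 3, and Unigene52423, 5 and 1). Whether these neuralized-like proteins act on Notch ligands was not tested. The proteases of the ADAM10 and ADAM17 type had 33 and 18 reads. The γ-secretase partners nicastrin and PEN-2 had 36 reads in C0 against 38 in C1, or log2 0.22 (interval -0.43 to 0.88).

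Hedgehog signaling was visible only downstream. Suppressor of fused, the inhibitor of Gli, was found as 2 unigenes. Unigene12253 had 29 reads in C0 against 25 in C1, an RPKM of 21.4 and 20.4 and log2 -0.06 (interval -0.83 to 0.70). Unigene47318 had 13 and 18 reads, or log2 0.60 (interval -0.39 to 1.62). The catalytic subunit of cAMP-dependent protein kinase, which phosphorylates Gli but serves many other pathways, had 47 reads in C0 against 28 in C1 over 6 unigenes, none of them called. The log2 ratio of the sum was -0.59 (interval -1.27 to 0.07). Unigene56675 had 24 and 7 reads, or log2 -1.56 (interval -2.81 to -0.45, adjusted p = 0.0529, exact binomial test). Unigene54891 went the other way with 3 and 9 reads, or log2 1.59 (interval -0.04 to 3.50).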

How the data were processed

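The members and lists were chosen with earlier results of these data known. Poly(A) RNA of 1 library per group was sequenced on an Illumina instrument. The authors removed adaptor, unknown-base and low-quality reads and mapped the rest with SOAPaligner/soap2 (version not given in the sources used here) to the unigenes of an earlier transcriptome. They deposited the count of uniquely mapped reads per unigene, the RPKM calculated from it, and the coverage as the percent of unigene length with reads. An RPKM of 0 is written as 0.001 in the deposited comparison table and was set to 0 here. Its columns of log2 ratio, p-value and false discovery rate were not used, and value columns without a sample numbered 0. Best hits and GO terms are the authors'.

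Summed unigene reads served as library size. The exact two-sided binomial test, the adjustment and the Wilson intervals (95%) were calculated in Python 3.11.15 (scipy 1.17.1, numpy 2.4.6, pandas 2.3.3; figures with matplotlib 3.10.9). The script was tested on simulated data. A limit of 3 reads was used for a count of 0. Named were every called unigene, the 25 listed unigenes with most reads, the most read one of each role, and of the further pathway unigenes each called one and the most read one per pathway. The most read one of axon guidance is not reported here. Others were chosen after their values were seen. Alternatives were TMM factors of edgeR 4.0.16 (R 4.3.3), median ratio size factors, 1 read added, a minimum of 10 reads, Fisher's exact test, edgeR's exact test at assumed coefficients of variation of 0.2 and 0.4, other read minimums for the median, pathway names only, reads summed over shared best hits, and a floor of 3 reads. Library sizes without ciliate hits, and the median of the other protein names, were added after seeing the data. The later genome assembly ASM2467909v1 lists 0 of the unigene identifiers among its genes, so no coordinates or sequences are given.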

Additional observations from a re-analysis of the deposited data

How the results depend on the processing

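The number of called unigenes in the list stayed at 0 under every alternative run. Taking a part of the list or adding 1 read could not have added a call, so these runs do not check the 0. The assumed coefficients of variation made calls rarer over all unigenes. No paired analysis was possible because each group has 1 library, and for the same reason no replicate could be left out. The median log2 ratio of the list, -0.20, was -0.37 with TMM factors, -0.35 with median ratio size factors and -0.36 with every listed unigene of at least 1 read. The scalings moved annotated unigenes alike, from a median of -0.07 to -0.24 and -0.22. Among the 35 unigenes of the list chosen for naming, none gained a call, which those under 14 reads could not. The log2 ratio was recalculated only by another scaling or by 1 read added. Values below 0 in place of above it were found for β-catenin with TMM factors (-0.04) and with median ratio size factors (-0.02), and axin Unigene50726, syntaxin Unigene11492 and the armadillo repeat protein Unigene5474 with TMM factors (-0.02 each), and the last 3 came to 0.00 with median ratio size factors. The 3 further pathway unigenes called became 1 with an assumed coefficient of variation of 0.2, 0 with 0.4, and 1 when reads were summed over shared best hits, which joins the 14-3-3 unigenes. The 1931 calls over all unigenes became 295 with 0.2 and 8 with 0.4. With the assumed variation of 0.2 or 0.4, 1 of the 74 unigenes had an unadjusted p under 0.05, and none of the pathway unigenes did. Both the single library per group and depth limit these results, since 51 of the 74 unigenes had too few reads for any call.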

Other observations

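Metaxin-1, which the word axin found by its letters alone, was the only best hit in the list with a summed log2 ratio above 1 whose interval excluded 0. Its 2 unigenes, Unigene29566 and Unigene53754, had 17 reads in C0 and 40 in C1 together, a log2 ratio of 1.36 with an interval of 0.57 to 2.19, while the 2 unigenes of the other metaxin best hit had 59 and 39 reads, a log2 ratio of -0.44 with an interval of -1.03 to 0.13. The sums were chosen after the values were seen and have no test.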
